A study of Mus musculus with 12 samples.

Results

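The response of cryptochrome-deficient fibroblasts to a glucocorticoid was examined in 6 of the 12 arrays of the series: 3 arrays of double knockout (dKO) cells given dexamethasone (Dex) against 3 arrays of dKO cells given its solvent, ethanol (EtOH). The cells were primary fibroblasts of C57BL6/J mouse embryos at E15.5 (MEFs, matrix-forming cells put into culture from embryonic tissue), with both copies of both cryptochrome genes deleted (Cry1-/-Cry2-/-). Dex was given at 1 µM for 16 hours, and the EtOH cultures were kept for the same time. Messenger RNA was read on Illumina bead arrays, which measure each transcript as the brightness of beads carrying a matching probe. Of 25697 probes, 11290 had a detection p under 0.01 on at least 3 of these 6 arrays and made up the set examined, which gave 7965 genes after unnamed probes were left out and each gene was read from its brightest probe. The remaining 6 arrays hold control MEFs (Cry1+/-Cry2+/- by the sample labels, wild type by the design text) under the same treatments, and served to estimate the spread and to compare the genotypes. The labels number 3 biological replicates per group without saying whether they came from separate embryos or cultures, so the p-values measure the spread between these samples, which may be technical.

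Dexamethasone is a synthetic glucocorticoid. It binds the glucocorticoid receptor (gene Nr3c1), a transcription factor that then enters the nucleus, activates genes through palindromic response elements in DNA and lowers many inflammatory genes, largely through other factors such as NF-kB and AP-1. In fibroblasts glucocorticoids are known for curbing cytokine and chemokine production and for altering matrix turnover. Cryptochromes are repressors of the circadian clock, and the series title concerns a repression of the glucocorticoid receptor by them, so the comparison asks what the hormone does where both are missing.

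Levels are given as log2 of the corrected and quantile-normalized signal, and a change is the mean of the Dex arrays less the mean of the EtOH arrays on that scale, printed as change ± model standard error (n = 3 arrays per group). A gene is said to have risen or fallen when it passed an adjusted p of 0.05 in limma, a linear model with moderated variances, after Benjamini-Hochberg adjustment over the 7965 genes. A probe with a detection p under 0.01 is called above background. Where none of the 3 arrays of a group was above background, a lower bound of the fold is printed (at least N-fold), taken against the lowest above-background level of each array (log2 6.09 to 6.35). Such a gene passed the probe filter through the other group alone, so its change helped to admit it. At the edge of the probe filter, the 411 probes above background on exactly 3 of the 6 arrays had a median signal of 222, the 506 probes with 2 such arrays, which were left out, one of 211, and the 10152 probes above background on all 6 one of 873.

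Markers of the labelled cell type were present, and so were those of macrophages. All 14 fibroblast markers on the array were measured, and their summed linear level was 102151 to 111481 on the EtOH arrays and 102411 to 107178 on the Dex arrays. Of the markers of other cell types, 11 of 12 epithelial, 7 of 12 endothelial, 8 of 12 neural, 9 of 12 skeletal muscle and 7 of 8 erythroid and lymphoid ones were at background on all 6 arrays, among them Cdh1, Pecam1, Sox2, Myod1 and Gata1. The sums of those measured moved in both directions. They were higher with Dex for endothelial markers (1559 to 1617 against 1088 to 1488), where Emcn, an endothelial sialomucin, rose by 1.86 ± 0.13. Neural markers summed to 3039 to 3098 against 2021 to 2306, where Map2 rose and Nes, the intermediate filament nestin, fell by 1.07 ± 0.18. Mesothelial markers, 3 of 8 measured, summed to 313 to 356 against 172 to 250. For lymphoid markers the sum was 929 to 994 against 319 to 659 and rested on Cd3e, a T cell receptor chain (1.18 ± 0.24). The 2 skeletal muscle markers measured summed lower with Dex, 10725 to 11903 against 11937 to 13006. Of these, Tnnt1 rose by 1.15, against the direction of the sum, and Acta1 read -0.20 and did not pass. The epithelial values overlapped (76 to 123 against 53 to 95). In bulk RNA, fewer cells of a type and less RNA per cell cannot be told apart. Macrophage markers, 30 of 36 measured, summed to 202258 to 233860 on the EtOH arrays and 194400 to 201059 on the Dex arrays. A linear sum follows its brightest members, here Lyz1 (log2 level 16.09 with EtOH, 16.06 with Dex) and Lyz2 (15.15 and 14.68). The markers thus do not show cultures of fibroblasts alone, and the macrophage transcripts are described with the immune genes. Neither Nr3c1 nor Cry1 had a probe above background on any of the 6 arrays, so neither the level of the receptor transcript nor the deletion could be read. Cry2 read 6.38, 6.81 and 6.70 on the EtOH arrays and 6.88, 7.08 and 6.36 on the Dex arrays and its difference did not pass. Whether the probes target the deleted exons was not analysed here.

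The arrays separated by treatment. The leading principal component of the 6 arrays (66.7% of the variance) placed the Dex arrays at 20.1 to 21.1 and the EtOH arrays at -28.0, -26.4 and -7.08 for replicates 1, 2 and 3. EtOH replicate 3 also stood alone on the next component (17.1%), at -23.5, while the other 5 arrays lay between 0.59 and 8.53. The root mean square deviation from the group mean was 0.27 for EtOH replicate 3, against 0.19 and 0.17 for replicates 1 and 2 and 0.13 to 0.15 for the Dex arrays. Which of the EtOH arrays departs from the usual state of these cells was not tested. With EtOH replicate 3 left out 2194 genes were called, and with EtOH replicate 2 left out 718.

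**Figure D1:**
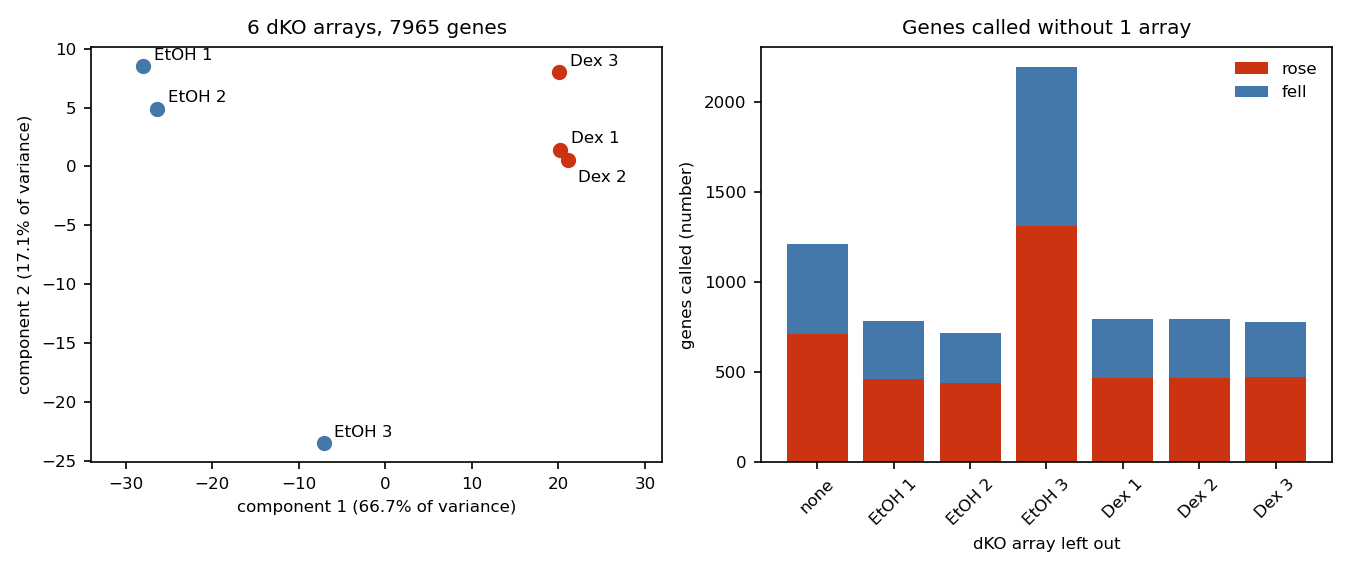
The left panel places the 6 dKO arrays on the leading 2 principal components of the 7965 genes, and the right panel gives the number of genes called with no array or with 1 dKO array left out, split into genes that rose and genes that fell. EtOH replicate 3 lies apart from replicates 1 and 2, and leaving it out gives 2194 called genes against 1212 with all arrays.

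Dex changed 1212 of the 7965 genes (15.2%), of which 709 (8.9%) rose and 503 (6.32%) fell. Where a list is described below by counts in dKO cells, these are the shares of all genes to set beside it. At least 2-fold changes were found for 192 genes that rose (2.41%) and 92 that fell (1.16%). The 3 Dex and 3 EtOH values did not overlap for 2659 genes (33.4%), a larger share than that called, and 5 of the called genes had overlapping groups. The median change of all genes was 0.03. Giving all arrays the same median, without quantile normalization (median scaling below), moved this median to 0.14 and the split to 890 genes higher and 332 lower, so changes are given relative to the quantile-normalized distribution. In all, 608 of the 1212 calls were kept when each of the 6 arrays was left out in turn, and 531 without 3 arrays together: dKO EtOH replicates 1 and 2 and control Dex replicate 3. That fit, called the reduced fit below, leaves EtOH replicate 3 as the only dKO EtOH array and assumes that it varies like the arrays of the other groups. The genes named below kept their call in each fit that left out 1 of the 6 arrays unless stated.

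The classical targets of the glucocorticoid receptor rose together. Of 29 measured genes on a list of 37 glucocorticoid-induced targets, 23 rose and 1 fell, with a median change of 1.50 (1.43 with genes at background set to their bounds) against 0.03 for all genes. Lcn2, Glul, Fam107a and Crispld2 passed the probe filter through the Dex arrays alone, so their rise helped to admit them to this count. Listed genes at background under both treatments, such as Tat and Pck1, are not among the 29. The list gave 22 and 1 in the reduced fit. Fkbp5 encodes a co-chaperone that lowers the affinity of the receptor for hormone and so closes a feedback loop. Its level was 6.57, 6.91 and 7.07 on the EtOH arrays and 11.55, 11.76 and 11.71 on the Dex arrays. The Dex arrays lay close together and far above the EtOH range, a change of 4.82 ± 0.15 (limma, adjusted p = 1.55e-09).

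Tsc22d3 encodes GILZ, a leucine zipper protein that binds and restrains NF-kB and AP-1. It read 12.18, 12.02 and 12.11 on the EtOH arrays and 13.90, 14.10 and 14.16 on the Dex arrays, without overlap, and rose by 1.95 ± 0.11. Sgk1, a serum- and glucocorticoid-regulated kinase of ion transport, went from 11.92, 11.998 and 12.10 under EtOH to 13.69, 13.58 and 13.69 under Dex, a rise of 1.65 ± 0.10. Per1, a clock repressor gene that is also a direct receptor target, read 8.18, 8.36 and 8.44 on the EtOH arrays and 9.66, 9.96 and 9.87 on the Dex arrays and rose by 1.50 ± 0.16. All of these genes separated the treatments completely, as did 33.4% of all genes.

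Several genes that dampen growth factor signalling also rose. Errfi1, an inhibitor of the epidermal growth factor receptor, read 10.33, 10.47 and 10.59 with EtOH and 13.45, 13.57 and 13.31 with Dex, a change of 2.98 ± 0.14. Dusp1, a phosphatase of MAP kinases, rose by 0.70 ± 0.11 and Dusp6, a phosphatase of ERK, by 0.54 ± 0.11, while Dusp4 fell by 0.70 ± 0.12. Of 11 measured genes of MAP kinase feedback 3 rose and 1 fell (36.4% called, against 15.2% of all genes). Dusp6 lost its call in the reduced fit (0.41, adjusted p = 0.153, limma).

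Cdkn1c and Rgcc, genes of cell cycle control, stood among the 30 largest rises. Cdkn1c, the imprinted gene of the CDK inhibitor p57, read 11.26, 11.39 and 11.17 on the EtOH arrays and 13.77, 14.08 and 14.08 on the Dex arrays and rose by 2.71 ± 0.10. Rgcc, a regulator of cell cycle and of complement responses, had 6.59, 6.25 and 5.67 under EtOH and 10.42, 10.36 and 10.01 under Dex. The EtOH values spread over nearly 1 log2 unit and stayed well below the Dex values (4.10 ± 0.20). Of 14 measured CDK inhibitors and D cyclins, 3 rose and 1 fell (28.6% called, against 15.2% of all genes). The remaining rise was in a D cyclin (0.48) and the fall in a CDK inhibitor (-0.38), so the list did not move towards restraint as a whole.

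**Figure D2:**
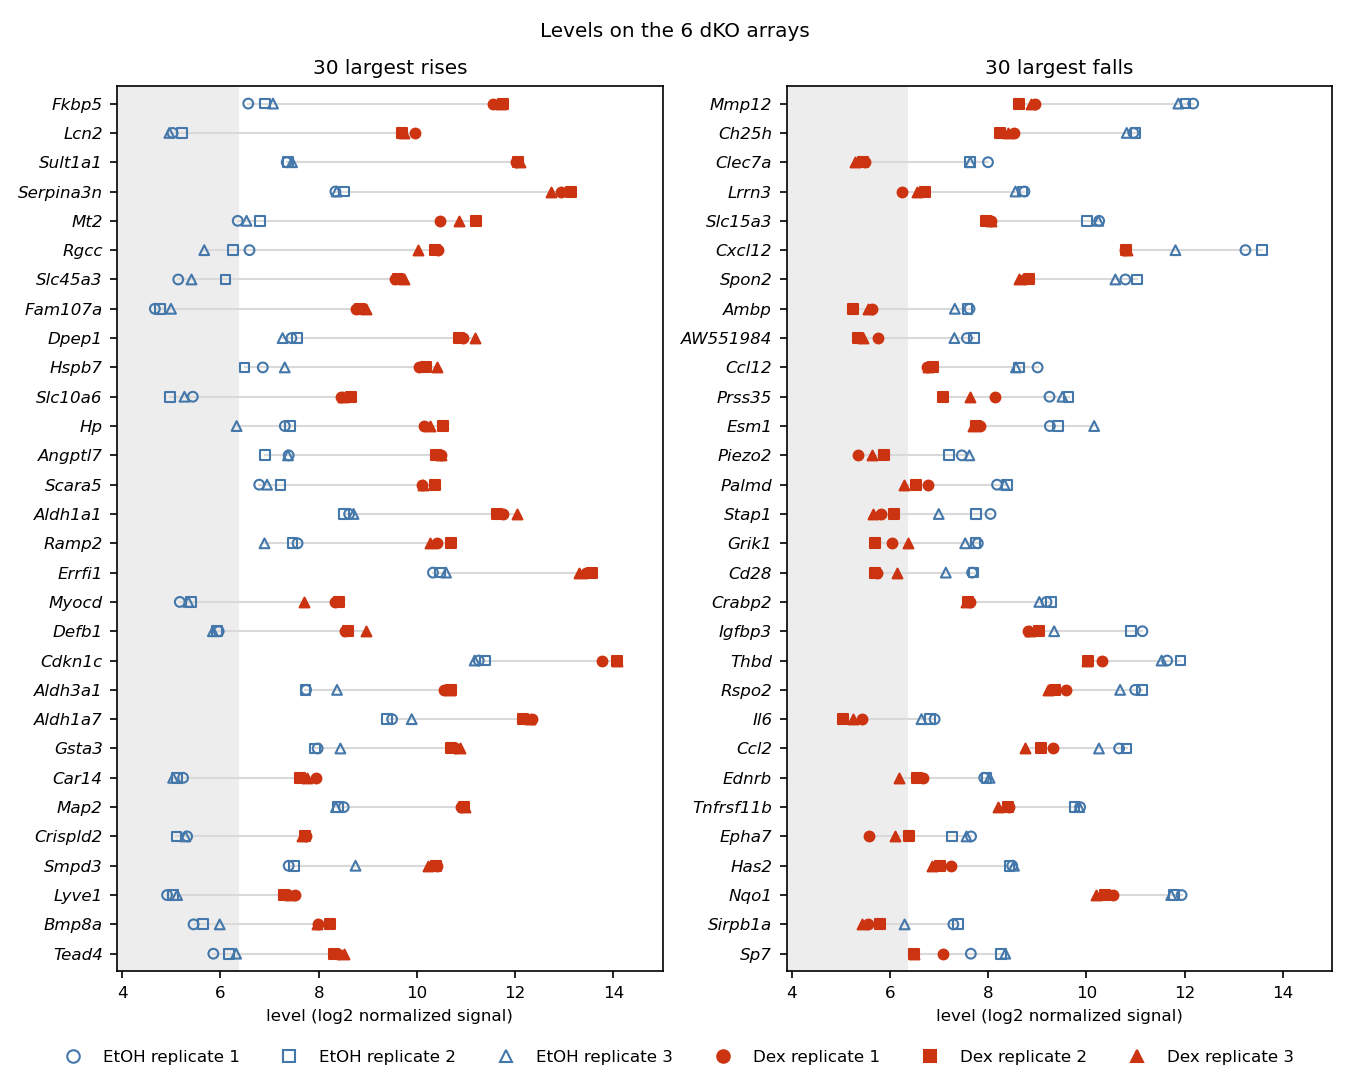
Each row shows the level (log2 normalized signal) of a gene on the 6 dKO arrays, open blue symbols for EtOH and filled red symbols for Dex, with the shape giving the replicate; the grey band ends at 6.35, the highest of the lowest above-background levels. The 30 largest rises (left) and 30 largest falls (right) are sorted by size and had to have groups that do not overlap, and in the rows of Cxcl12 and Igfbp3 EtOH replicate 3 lies nearer to the Dex arrays than EtOH replicates 1 and 2.

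Response elements for the receptor were looked for in RefSeq promoter windows (GRCm38.p6) of 300 bases, from 250 before to 50 after the annotated start, which were found for 6526 of the 7965 genes. The motif was a loose form of the palindrome on either strand, GNACA followed after any 3 bases by TGTNC. It lay in the window of 27 of 6526 genes tested (0.414%), of 10 of the 561 genes that rose and had a window (1.78%), of 8 of the 147 that rose at least 2-fold (5.44%) and of 1 of the 384 that fell (0.26%). Among the 30 largest rises 4 of the 20 with a window held it, and none of the 15 with a window among the 30 largest falls. The stretches below are shown because they hold the motif upstream of the start of genes that changed, with the match in capitals and 20 bases on each side, in the direction of transcription; they were picked for the motif after their values were seen.

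The match began 78 bases before the start of Serpina3n (chr12:104406610-104406662, plus strand), 120 before Fam107a (chr14:8309865-8309917, minus), 163 before Slc10a6 (chr5:103629534-103629586, minus) and 225 before Car14 (chr3:95904878-95904930, minus). It began 181 bases before Map3k6 (chr4:133240617-133240669, plus), 188 before Sgk1 (chr10:21993682-21993734, plus), 46 before Suox (chr10:128673932-128673984, minus), 172 before Txnip (chr3:96557765-96557817, plus) and 94 before Mt1 (chr8:94178975-94179027, plus). In Cpxm1, the gene that fell, it began 221 bases before (chr2:130397818-130397870, minus).
Serpina3n: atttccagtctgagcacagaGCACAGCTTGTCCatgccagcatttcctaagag
Fam107a: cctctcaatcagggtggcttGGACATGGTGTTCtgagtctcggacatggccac
Slc10a6: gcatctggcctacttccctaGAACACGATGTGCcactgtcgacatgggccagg
Car14: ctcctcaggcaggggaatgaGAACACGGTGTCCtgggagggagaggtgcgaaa
Map3k6: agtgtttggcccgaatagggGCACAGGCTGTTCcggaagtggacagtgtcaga
Sgk1: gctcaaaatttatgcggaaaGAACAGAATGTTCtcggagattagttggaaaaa
Suox: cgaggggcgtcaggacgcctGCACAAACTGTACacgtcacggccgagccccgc
Txnip: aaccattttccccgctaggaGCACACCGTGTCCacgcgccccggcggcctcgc
Mt1: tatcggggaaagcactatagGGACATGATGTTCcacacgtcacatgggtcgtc
Cpxm1: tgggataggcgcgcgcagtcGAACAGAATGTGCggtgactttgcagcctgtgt

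The 4 stretches of Serpina3n, Fam107a, Slc10a6 and Car14 belong to genes among the 30 largest rises. Of the others, Map3k6, a stress kinase gene, rose by 1.98 ± 0.19, Txnip, an inhibitor of thioredoxin and of glucose uptake, by 0.93 ± 0.17, and Suox, the gene of sulfite oxidase, by 1.50 ± 0.12. Cpxm1, a carboxypeptidase-like gene, fell by 1.37 ± 0.20 (-0.83 in the reduced fit). A further match, in Gp1bb, crossed the annotated start and is not shown. The shorter letters AGAACA were found in 14.8% of all windows, 15.3% of those of genes that rose and 14.6% of those of genes that fell. The E-box CACGTG, an element bound by clock factors, was in 784 of 6526 windows of all genes, 57 of 561 of genes that rose and 36 of 384 of genes that fell, and the AP-1 letters TGANTCA in 6.54%, 8.73% and 6.51%. A match is a description of the letters and not a bound site.

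Secreted defence and acute-phase proteins had the highest median change of the lists described. Of 19 genes of the list on the array 9 were measured, and 7 of these rose and 2 fell, with a median of 1.85 (1.69 with genes at background at their bounds) against 0.03 for all genes. Lcn2 and Orm1 passed the probe filter through the Dex arrays alone and Ambp through the EtOH arrays alone, so their change helped to admit them. Lcn2, an iron-siderophore-binding protein of innate defence, was at background on all EtOH arrays and read 9.97, 9.71 and 9.74 on the Dex arrays, at least 12.5-fold higher. Serpina3n, an inhibitor of serine proteases, read 8.34, 8.52 and 8.37 on the EtOH arrays and 12.92, 13.14 and 12.74 on the Dex arrays and rose by 4.53 ± 0.15. Hp, the haemoglobin scavenger haptoglobin, read 7.31, 7.42 and 6.33 on the EtOH arrays and 10.15, 10.52 and 10.27 on the Dex arrays. EtOH replicate 3 was the lowest array for Hp and no Dex value came near the EtOH values, a rise of 3.30 ± 0.27.

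Saa3, a serum amyloid A gene, rose by 2.18 ± 0.25. Its EtOH arrays read 6.29, 6.50 and 5.38 and its Dex arrays 8.15, 8.11 and 8.45, again with the lowest value on EtOH replicate 3. Orm1, the plasma lipid carrier orosomucoid, came up from background by at least 2.02-fold. Lbp, which presents bacterial lipopolysaccharide, rose by 1.69 ± 0.23 and the copper oxidase Cp by 1.19 ± 0.19. Ambp, the precursor of a small plasma carrier and a protease inhibitor, moved against the list and was at least 2.28-fold lower, being at background on all Dex arrays after 7.62, 7.58 and 7.32 with EtOH. The other fall was Pf4, a platelet chemokine, at -0.58 ± 0.15, a call lost when EtOH replicate 1 or Dex replicate 2 or 3 was left out and in the reduced fit, where 1 gene fell.

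Antimicrobial and scavenging genes off that list also stood among the largest rises. Defb1, a beta-defensin, was at background under EtOH and read 8.54, 8.61 and 8.96 with Dex, at least 5.85-fold higher. Scara5, a receptor for ferritin, read 6.79, 7.22 and 6.95 on the EtOH arrays and 10.09, 10.36 and 10.13 on the Dex arrays and rose by 3.21 ± 0.20. Lyve1, a hyaluronan receptor of lymphatic endothelium and some macrophages, came from background to 7.52, 7.29 and 7.41, at least 2.38-fold. All of these genes belong to the largest rises, which were picked for groups without overlap, so their lack of overlap is no separate result. Defb1 and Lyve1 passed the probe filter through the Dex arrays alone, so their rise helped to admit them.

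Enzymes of drug and aldehyde metabolism changed in both directions. Of 26 measured detoxification genes 8 rose and 5 fell, with a median of -0.04 (0.14 with median scaling). The falls depended on the processing, with 8 and 2 in the reduced fit and 8 and 1 with median scaling. Sult1a1, a phenol sulfotransferase, read 7.35, 7.38 and 7.46 on the EtOH arrays and 12.01, 12.05 and 12.09 on the Dex arrays, and the change of 4.66 ± 0.08 had the smallest p of all genes on the list (limma, adjusted p = 6.92e-12). Of the aldehyde dehydrogenases, Aldh1a1, which makes retinoic acid, rose by 3.18 ± 0.13, its close relative Aldh1a7 by 2.67 ± 0.15 and Aldh3a1 by 2.69 ± 0.30. The mitochondrial Aldh2 and the fatty aldehyde enzyme Aldh3a2, also on the list, read -0.19 ± 0.09 and 0.17 ± 0.12 and did not pass. Probes of Aldh1a1 and Aldh1a7 may read each other's transcript, since the coding sequences are near copies, and whether they do was not tested.

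Gsta3, a glutathione transferase, rose by 2.67 ± 0.14 from 7.98, 7.92 and 8.44 to 10.78, 10.70 and 10.87. Cyp2d22, a cytochrome P450, and Ephx2, an epoxide hydrolase, rose by 1.35 ± 0.13 and 1.32 ± 0.13. In the other direction Nqo1, a quinone reductase and a standard target of the oxidative stress factor Nrf2, fell by 1.44 ± 0.20, from 11.94, 11.78 and 11.73 to 10.54, 10.39 and 10.20. Srxn1, which repairs oxidised peroxiredoxins, fell by 0.68 ± 0.10, while Gclc, the rate-limiting enzyme of glutathione synthesis, rose by 1.37 ± 0.24. Of 16 measured Nrf2 targets 2 rose and 4 fell (median -0.14), so the list did not move one way.

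Metallothionein genes, whose products bind zinc and copper, rose. Mt2 read 6.35, 6.81 and 6.53 on the EtOH arrays and 10.47, 11.20 and 10.86 on the Dex arrays. Mt1 read 15.504, 15.36 and 15.17 on the EtOH arrays and 16.06, 16.03 and 16.03 on the Dex arrays. Neither gene overlapped between treatments, as was so for 33.4% of all genes, and the rises were 4.28 ± 0.24 and 0.70 ± 0.09. The Dex values of Mt1 lay at the level of the brightest listed genes, such as Lyz1 (16.06 with Dex). Its rise may thus be cut short, and its size cannot be set against that of Mt2. None of the 3 measured zinc transporters (Slc30a1, Slc30a4 and Slc39a10) passed. The small heat shock proteins, chaperones of the cytoskeleton, also rose: Hspb7 by 3.33 ± 0.29, Hspb1 by 1.16 ± 0.14, Cryab by 0.81 ± 0.12 and Hspb6 by 0.66 ± 0.11. With Hspb8 (0.39 ± 0.11, a call lost in each fit that left out an array of the 6) they were the 5 of 14 heat shock genes called, all upward, and the list had a median of 0.28.

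Transporters and membrane enzymes supplied several of the largest rises. Slc45a3, a sugar transporter, was above background on 1 EtOH array only and read 5.14, 6.10 and 5.41 on the EtOH arrays and 9.56, 9.61 and 9.74 on the Dex arrays, a change of 4.09 ± 0.22. Slc10a6, a carrier of steroid sulfates, was at background with EtOH and at 8.45, 8.66 and 8.49 with Dex, at least 5.21-fold higher. Dpep1, a membrane dipeptidase, rose by 3.57 ± 0.18 from 7.44, 7.56 and 7.26 to 10.94, 10.85 and 11.17. Car14, a membrane carbonic anhydrase, came from background to 7.94, 7.61 and 7.76, at least 3.06-fold. Atp1b1, the beta subunit of the sodium pump, rose by 1.50 ± 0.11. Of 29 measured solute carriers 6 rose and 3 fell, and in the reduced fit 2 and 3. With all arrays 31% of the list was called, against 15.2% of all genes. Slc40a1, the iron exporter ferroportin, fell by 1.08 ± 0.13.

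Metabolic genes rose more often than they fell. The shares called on the amino acid, sterol and hypoxia lists below were 33.3%, 39.1% and 30.4%, against 15.2% of all genes. Pdk4, which keeps pyruvate out of the citric acid cycle, read 10.40, 10.26 and 10.77 on the EtOH arrays and 12.45, 12.39 and 12.45 on the Dex arrays and rose by 1.95 ± 0.14. Glul, glutamine synthetase, came up from background to 7.34, 7.37 and 8.06, at least 2.7-fold. They led a list of amino acid, ketone and glucose metabolism of which 6 of 18 rose and none fell (median 0.27, against 0.03 for all genes), and in the reduced fit 2 rose. On the sterol and fatty acid synthesis list 9 of 23 rose and none fell (median 0.24, and 0.20 in the reduced fit). They were led by Lss, lanosterol synthase (1.06 ± 0.14), Pmvk, phosphomevalonate kinase (0.64 ± 0.11), and Msmo1, a sterol oxidase (0.61 ± 0.11).

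Of 23 measured hypoxia and glycolysis genes 7 rose and none fell, with a median of 0.21 and 4 rises in the reduced fit. Egln3, an oxygen-sensing prolyl hydroxylase, rose by 1.55 ± 0.12, Ndrg1, a stress-response gene, by 1.03 ± 0.20, the glucose transporter Slc2a1 by 0.76 ± 0.12 and Adm, the vasodilator adrenomedullin, by 0.90 ± 0.15. Under median scaling the medians of these 3 metabolic lists were 0.42, 0.36 and 0.35, where that of all genes was 0.14. On the list of adipogenesis and lipid storage 4 of 19 rose and 2 fell (2 and 2 in the reduced fit). With all arrays 31.6% of that list was called, against 15.2% of all genes. Klf5, an early adipogenic factor, rose by 1.52 ± 0.28 (0.89 in the reduced fit), whereas Lpl, lipoprotein lipase, fell by 0.85 ± 0.11 and Angptl4, its inhibitor and a glucocorticoid target in other tissues, fell by 0.88 ± 0.17. Angptl4 was the only gene of the glucocorticoid-induced list that fell, and it read 9.50, 9.25 and 9.50 on the EtOH arrays and 8.43, 8.65 and 8.53 on the Dex arrays.

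The genes of smooth muscle and contraction that changed all rose. The list had 44.4% of its measured genes called, against 15.2% of all genes. Of 18 measured genes 8 rose and none fell, with a median of 0.22, and 5 rose in the reduced fit. Myocd, the coactivator that drives smooth muscle genes together with SRF, was at background under EtOH and read 8.33, 8.42 and 7.70 under Dex, at least 3.99-fold higher. Des, the muscle intermediate filament desmin, rose by 1.04 ± 0.14, Myh11, smooth muscle myosin, by 1.03 ± 0.13, Lmod1, an actin nucleator, by 0.84 ± 0.10 and Mylk, myosin light chain kinase, by 0.65 ± 0.12. Tagln, an actin-binding protein used as an early marker of the lineage, read a change of 0.13 ± 0.09 and did not pass.

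Genes of receptor signalling changed in both directions. On the list of G protein and cAMP signalling 27.6% of the measured genes were called, against 15.2% of all genes. Ramp2, a partner protein that turns the calcitonin-receptor-like receptor into the adrenomedullin receptor, read 7.57, 7.47 and 6.90 on the EtOH arrays and 10.42, 10.70 and 10.27 on the Dex arrays and rose by 3.15 ± 0.20. Ramp1, which makes the same receptor respond to CGRP, rose by 1.81 ± 0.14. Rgs2, which shortens G protein signals, rose by 1.13 ± 0.20, while Rgs4 fell by 1.30 ± 0.14 and Ednrb, an endothelin receptor, fell by 1.51 ± 0.12. Of 29 measured genes of G protein and cAMP signalling 5 rose and 3 fell (4 and 4 in the reduced fit).

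Among growth factors and their receptors 6 of 27 measured genes rose and 6 fell (4 and 6 in the reduced fit, with a median of -0.21 in place of 0.05). The lymphangiogenic factors Vegfd and Vegfc rose by 2.18 ± 0.30 and 1.51 ± 0.15, and Gas6, the ligand of the TAM receptors that promote the uptake of dead cells, by 1.37 ± 0.13. Vegfd read 10.07, 10.01 and 10.999 on the EtOH arrays and 12.55, 12.62 and 12.44 on the Dex arrays, with EtOH replicate 3 the nearest to the Dex arrays. Nrg1, a ligand of ErbB receptors, was at background on all Dex arrays after 7.11, 7.60 and 7.74, at least 2.24-fold lower. Angptl7, a secreted angiopoietin-like protein and a known glucocorticoid target of the eye, rose by 3.23 ± 0.22. In the insulin-like growth factor system Igf1 fell by 1.24 ± 0.11 and Irs2, an adaptor of the insulin receptor, rose by 1.19 ± 0.23 (0.74 in the reduced fit, not called). The binding protein Igfbp3 is an example of a result that depends on the EtOH arrays: it read 11.14, 10.91 and 9.34 on the EtOH arrays and 8.80, 9.03 and 8.84 on the Dex arrays, with EtOH replicate 3 near the Dex values, and its change of -1.57 ± 0.42 became -0.45 (adjusted p = 0.192, limma) in the reduced fit. Of the fits that left out 1 of the 6 arrays, it was called in 1, the one without EtOH replicate 3.

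In the BMP and TGF-beta pathway 5 of 36 measured genes rose and 2 fell (8 and 1 with median scaling). This share of 19.4%, and the 20% called of the Notch genes below, lay near the 15.2% of all genes. Inhbb, a subunit of activin B, rose by 1.85 ± 0.17 and Id4, an inhibitor of basic helix-loop-helix factors, by 1.23 ± 0.17, while the ligand Bmp4 fell by 0.84 ± 0.14, a call lost in the reduced fit. Bmp8a, another BMP ligand, was at background with EtOH and at least 3.74-fold higher with Dex. Of 23 measured Wnt genes 2 rose and 7 fell, with a median of -0.16, and 4 fell in the reduced fit and 3 with median scaling. Rspo2, which strengthens Wnt signals, fell by 1.55 ± 0.21 and Porcn, the acyltransferase that Wnt ligands need, rose by 0.86 ± 0.11. Notch4, an endothelial Notch receptor, rose by 2.15 ± 0.13, while the Notch target Hes1 fell by 0.52 ± 0.10 (not called in the reduced fit), and the other 8 of 10 measured Notch genes did not pass.

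Transcription factors of the Krueppel-like family rose, 6 of 9 measured, with none lower and a median of 0.88, and 4 of them in the reduced fit. Klf13, a regulator of chemokine and cholesterol genes, read 9.62, 9.59 and 9.95 on the EtOH arrays and 11.26, 11.23 and 10.87 on the Dex arrays and rose by 1.40 ± 0.18. Klf9, a receptor target and repressor, rose by 0.92 ± 0.14, Klf2, a quiescence factor of endothelium and T cells, by 1.22 ± 0.26 (0.71 in the reduced fit) and Klf6, a wound-response factor, by 0.88 ± 0.15 (not called in the reduced fit). Immediate early genes were mixed, with 3 of 14 higher and 5 lower (2 and 2 in the reduced fit, 3 and 1 with median scaling). Fos rose by 1.62 ± 0.11 and Zfp36, whose product destabilises cytokine messages, by 0.88 ± 0.11, while Egr1 fell by 0.59 ± 0.10, a call lost with median scaling, and Egr2 was at least 1.64-fold lower. Tead4, a DNA-binding partner of YAP, rose by 2.29 ± 0.15, and the vitamin D receptor Vdr by 1.25 ± 0.25 (0.76 in the reduced fit).

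**Figure D3:**
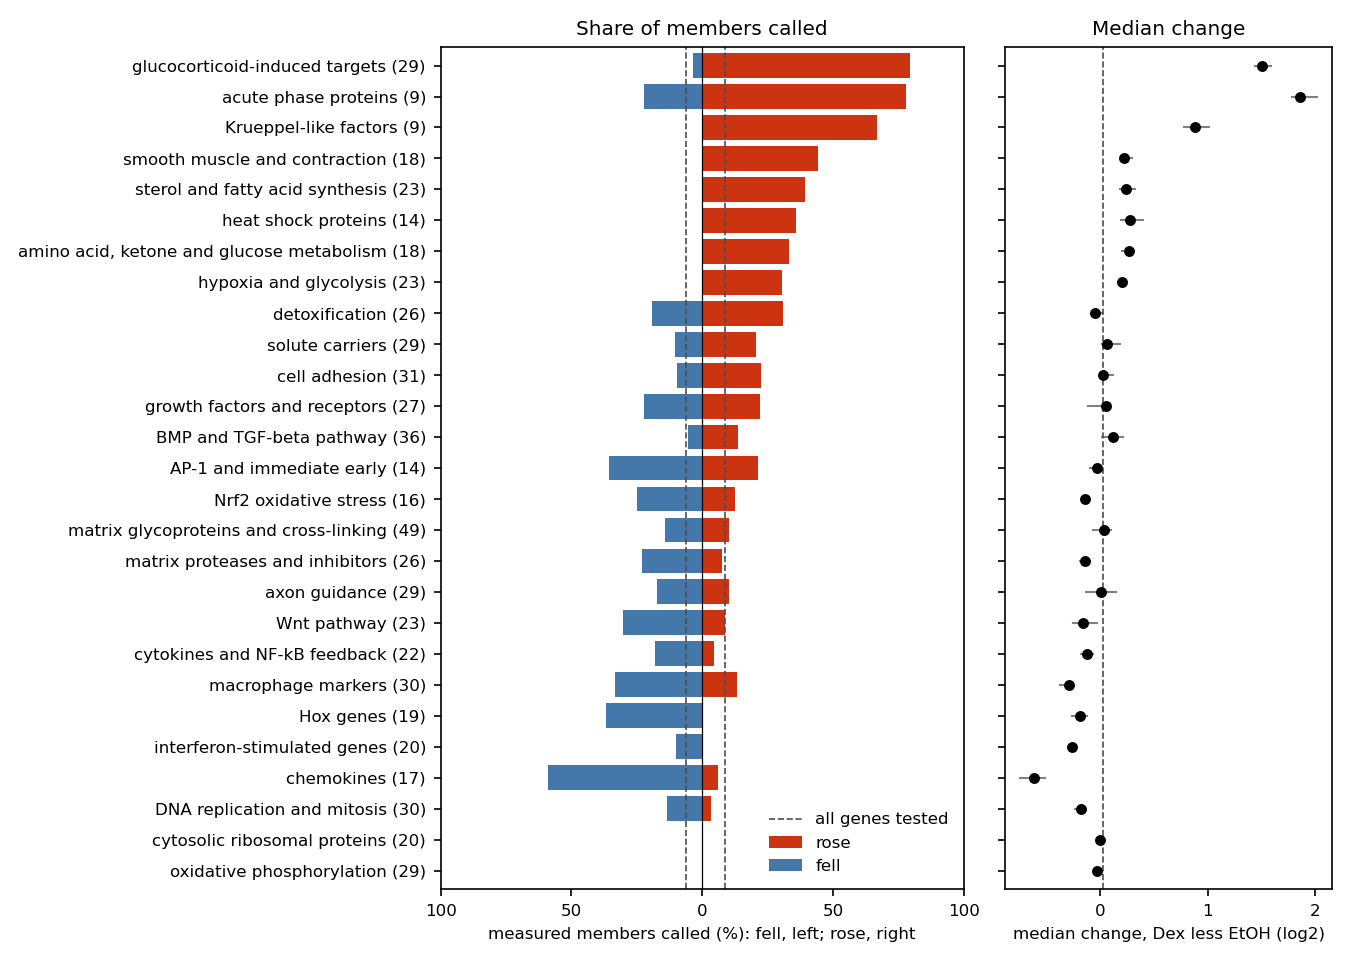
For 27 gene lists, with the number of measured genes in brackets, the left panel shows the percentage of members that rose (red, right of 0) and fell (blue, left of 0), with dashed lines at the shares of all genes tested (8.9% and 6.32%), and the right panel the median change (black points) with the range of medians when each dKO array is left out (grey lines). Glucocorticoid-induced targets, acute-phase proteins and Krueppel-like factors lie farthest to the right, and chemokines farthest to the left.

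Chemokines fell more often than any other list described. These attractants of white blood cells had 10 of 17 measured genes lower and 1 higher, with a median of -0.62 against 0.03 for all genes (-0.45 with median scaling, -0.31 in the reduced fit, which called 7 lower and 3 higher). Ccl12, which attracts monocytes, read 9.01, 8.63 and 8.57 on the EtOH arrays and 6.76, 6.87 and 6.78 on the Dex arrays. Ccl2, its close relative with the same role, read 10.67, 10.82 and 10.26 on the EtOH arrays and 9.31, 9.08 and 8.76 on the Dex arrays. The changes were -1.93 ± 0.13 and -1.53 ± 0.20, and both genes belong to the largest falls, which were picked for groups without overlap. Cxcl12, the ligand of Cxcr4, read 13.24, 13.58 and 11.81 on the EtOH arrays and 10.79, 10.81 and 10.82 on the Dex arrays. Its EtOH replicate 3 lay more than 1 log2 unit below the other EtOH arrays, so that the change of -2.07 ± 0.41 became -1.01 in the reduced fit, where it was still called. Cx3cl1 and Cxcl16, chemokines made as membrane proteins, fell with changes of -0.88 ± 0.15 and -0.69 ± 0.11. Ccl9 moved against the family and rose by 0.90 ± 0.12.

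Cytokines and the feedback genes of NF-kB moved less. Of 22 measured genes 1 rose and 4 fell (22.7% called, against 15.2% of all genes), with a median of -0.12. Il6, the cytokine that drives acute-phase proteins in the liver, read 6.91, 6.82 and 6.64 on the EtOH arrays and was at background on all Dex arrays, at least 1.39-fold lower. Nfkbia, the inhibitor that holds NF-kB in the cytoplasm, was the gene that rose (0.94 ± 0.13). Irf1, an interferon-response factor, fell by 0.78 ± 0.12 and Icam1, an adhesion molecule for white cells, fell by 0.79 ± 0.14. The interleukin 6 feedback gene Socs3 read -0.24 ± 0.19 and did not pass. In the prostaglandin list 2 of 9 measured genes rose (22.2% called, against 15.2% of all genes). Anxa1, an anti-inflammatory protein known as a glucocorticoid target, rose by 0.84 ± 0.12, and Ptgis, prostacyclin synthase, by 1.25 ± 0.24 (0.75 in the reduced fit).

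Few interferon-stimulated genes were called: 2 of 20 measured genes fell and none rose (10%, against 15.2% of all genes), with a median of -0.26. Ifit3 fell by 1.08 ± 0.21 and Ifi47 fell by 0.58 ± 0.14, and neither was called in the reduced fit, nor Ifi47 without EtOH replicate 2 or Dex replicate 2 or 3. In control cells 13 of these 20 fell with Dex (median -0.59), where 899 of all 7965 genes fell (median -0.04). The difference between genotypes was called for 1 of the 20, against 2.21% of all genes. Of 13 measured genes of antigen presentation 3 fell (Psme2, Tap1 and Tapbp), and none did in the reduced fit. With all arrays the 3 falls were 23.1% of that list, where 6.32% of all genes fell and 15.2% were called. Tap1 and Tapbp kept their call in 2 of the 6 fits that left out 1 array.

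Transcripts known from macrophages were split. Of the measured markers 46.7% were called, against 15.2% of all genes. Of 30 measured macrophage markers 10 fell and 4 rose, with a median of -0.29, and in the reduced fit 9 fell and 8 rose (10 and 8 with median scaling). The summed linear level of the 30 genes, which follows the brightest such as Lyz1 and Lyz2, was 202258 to 233860 on the EtOH arrays and 194400 to 201059 on the Dex arrays. Of the markers on the array, 6 were at background on all 6 arrays, including Ptprc, Itgam and Cd163. Mmp12, the macrophage elastase, gave the largest fall of all genes, reading 12.17, 12.02 and 11.87 on the EtOH arrays and 8.94, 8.62 and 8.86 on the Dex arrays, a change of -3.21 ± 0.12 (limma, adjusted p = 8.37e-09). Clec7a, the receptor for fungal glucans, was at background on the Dex arrays after 7.996, 7.63 and 7.63, at least 2.7-fold lower. Slc15a3, a lysosomal transporter of bacterial peptides, fell by 2.14 ± 0.15.

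Other macrophage transcripts rose. Ms4a6d, a membrane protein, read 11.42, 11.14 and 11.34 on the EtOH arrays and 13.25, 13.19 and 13.21 on the Dex arrays and rose by 1.92 ± 0.14. Mrc1, the mannose receptor, rose by 0.99 ± 0.11, Pla2g7, a phospholipase that degrades platelet-activating factor, by 1.06 ± 0.11, and C1qa, a complement subunit, by 0.60 ± 0.13. The general markers Adgre1, an adhesion receptor, and Tyrobp, a signalling adaptor, read -0.27 ± 0.11 and -0.19 ± 0.13 and did not pass. Ch25h, which makes the antiviral oxysterol 25-hydroxycholesterol, fell by 2.54 ± 0.16. Its EtOH arrays read 10.96, 11.001 and 10.82 and its Dex arrays 8.52, 8.24 and 8.39. Stap1, an adaptor of myeloid and B cells, and Cd28, a T cell receptor partner, were at least 2.43-fold and 2.27-fold lower, both at background with Dex. How much of these changes comes from a change in macrophage number was not tested.

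**Figure D4:**
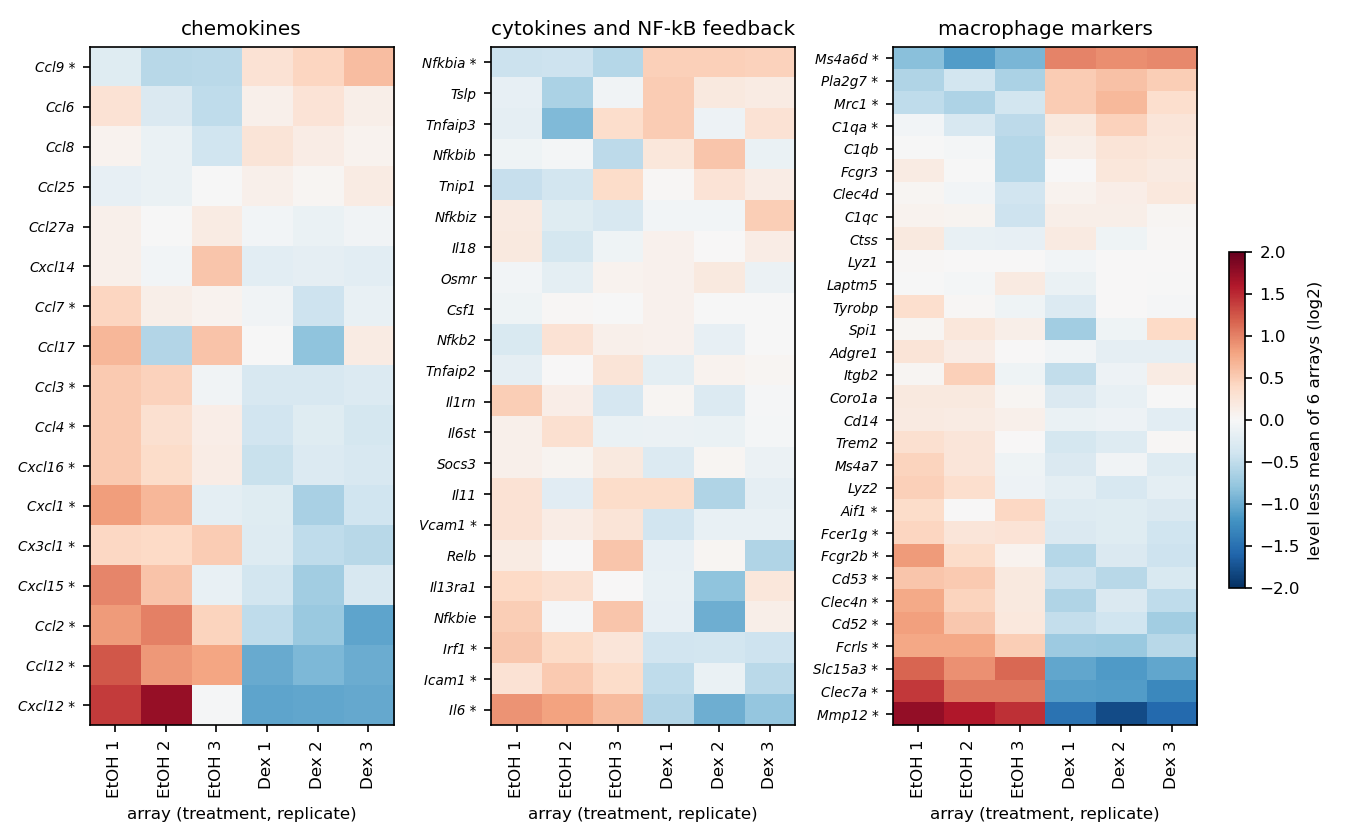
The heat maps give, for each measured member of 3 lists (rows, sorted by change) and each dKO array (columns), the level less the mean of the 6 arrays on the log2 scale, with an asterisk at genes called in dKO cells. In the rows of Cxcl12, Cxcl1 and Cxcl15 EtOH replicate 3 is paler than EtOH replicates 1 and 2, while Mmp12, Slc15a3 and Clec7a are high on all EtOH arrays.

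Enzymes and proteins of the extracellular matrix fell and rose. The shares called were 30.8% of matrix proteases and inhibitors and 24.5% of matrix glycoproteins and cross-linking enzymes, against 15.2% of all genes. Of 26 measured matrix proteases and inhibitors 6 fell and 2 rose (7 and 2 in the reduced fit), with a median of -0.14. Mmp13, a collagenase, fell by 0.99 ± 0.13 and Mmp16, a membrane-bound protease, fell by 1.20 ± 0.22. Adam12, a metalloprotease of growing mesenchyme, rose by 1.19 ± 0.12. Of 49 matrix glycoproteins and cross-linking enzymes 7 fell and 5 rose, with a median of 0.03, and in the reduced fit 6 fell and 1 rose, with a median of -0.11 (-0.02 for all genes). Has2, a hyaluronan synthase, read 8.49, 8.43 and 8.52 on the EtOH arrays and 7.25, 7.02 and 6.85 on the Dex arrays and fell by 1.44 ± 0.19. Spon2, a secreted matrix protein that also binds bacteria, fell by 2.07 ± 0.13. Matn4, a matrilin, fell by 1.16 ± 0.16 and Tgfbi, a TGF-beta-induced adhesion protein, fell by 0.91 ± 0.09. Lum, the collagen-binding proteoglycan lumican, was at background on all Dex arrays and at least 1.45-fold lower. P4ha2, a collagen prolyl hydroxylase, rose by 1.25 ± 0.18.

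Of 13 measured collagen genes 2 rose and 1 fell, and none rose in the reduced fit. The collagens called with all arrays were 23.1% of those measured, against 15.2% of all genes. The basement-membrane chains Col4a1 and Col4a2 rose by 0.89 ± 0.22 and 0.95 ± 0.25, but each lost its call when EtOH replicate 1 or 2, or Dex replicate 1 or 2, was left out, and the reduced fit gave 0.33 and 0.41. Plau, the urokinase gene, fell by 0.73 ± 0.16, a call lost with median scaling, and Thbd, the anticoagulant thrombomodulin, fell by 1.57 ± 0.15. Among adhesion molecules 7 of 31 rose and 3 fell (4 and 4 in the reduced fit, 7 and 1 with median scaling). Of the 31 adhesion molecules 32.3% were called with all arrays, against 15.2% of all genes. The fibronectin receptor chain Itga5 and the laminin receptor chain Itga3 rose by 1.93 ± 0.35 and 1.63 ± 0.22, Sdc4, a heparan sulfate proteoglycan, by 1.28 ± 0.12, and the collagen receptor chain Itga11 fell by 1.03 ± 0.17. The rise of Itga5 was 1.10 in the reduced fit.

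Cartilage and bone genes changed in both directions. Sp7, the osteoblast factor osterix, read 7.65, 8.26 and 8.35 on the EtOH arrays and 7.09, 6.48 and 6.49 on the Dex arrays and fell by 1.40 ± 0.23. Tnfrsf11b, the gene of osteoprotegerin, which blocks bone resorption, fell by 1.48 ± 0.13 from 9.87, 9.76 and 9.85 to 8.42, 8.40 and 8.21. Sox5, a chondrocyte factor, rose by 1.19 ± 0.21 (0.77 in the reduced fit). In all, 1 of 12 measured cartilage and bone genes rose and 3 fell (33.3% called, against 15.2% of all genes). Crabp2, which carries retinoic acid to its receptors, fell by 1.58 ± 0.11, and Prss35, a protease-like secreted protein, fell by 1.85 ± 0.22.

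Other genes among the 30 largest changes have not been described above. Fam107a, an actin-bundling protein induced by stress and a member of the glucocorticoid-induced list, came from background to 8.76, 8.84 and 8.97, at least 6.49-fold higher. Crispld2, a secreted protein that binds lipopolysaccharide and is on the same list, was at least 2.91-fold higher. Smpd3, a neutral sphingomyelinase, rose by 2.46 ± 0.28 (1.59 in the reduced fit). Among the falls, Esm1, a proteoglycan secreted by endothelium, read 9.26, 9.42 and 10.16 on the EtOH arrays and 7.83, 7.76 and 7.70 on the Dex arrays, with EtOH replicate 3 the highest array. Its change was -1.85 ± 0.27, beside the endothelial marker sums given above, which were higher with Dex. Piezo2, a mechanosensitive channel, was at background on all Dex arrays and at least 2.16-fold lower. Palmd, a palmitoylated cytosolic protein, fell by 1.77 ± 0.17 and Grik1, a kainate receptor subunit, fell by 1.65 ± 0.24.

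Of the measured Hox genes 36.8% were called and of the axon guidance genes 27.6%, against 15.2% of all genes. For the control counts below, 899 of all 7965 genes fell in control cells, and 2.21% were called for the difference between genotypes. Of 19 measured Hox and cofactor genes 7 fell and none rose, with a median of -0.19. The changes of the members with the smallest p were -0.93 ± 0.13 for Hoxb6, -0.78 ± 0.13 for Hoxb9 and -0.65 ± 0.14 for Hoxb2, which are position factors of the embryonic body axis. In the reduced fit Hoxb6 was the only call of the list, with median scaling 4 fell, and in control cells 14 of the 19 fell, with no gene of the list called for the difference between genotypes. Of 29 axon guidance genes 3 rose and 5 fell, and in the reduced fit 1 rose and 6 fell. Lrrn3, a neuronal leucine-rich repeat protein, read 8.74, 8.70 and 8.56 on the EtOH arrays and 6.24, 6.71 and 6.55 on the Dex arrays and fell by 2.16 ± 0.19, and Epha7, an ephrin receptor, fell by 1.47 ± 0.21. Plxna2, a semaphorin receptor, rose by 1.06 ± 0.15 (0.67 in the reduced fit). Map2, a microtubule protein of dendrites, was raised by 2.53 ± 0.14 from 8.51, 8.39 and 8.35 to 10.90, 10.96 and 10.97.

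Genes of DNA replication and mitosis were called about as often as all genes (16.7% against 15.2%), and those of apoptosis and p53 more often (39.3%). Of 30 measured genes of DNA replication and mitosis 1 rose and 4 fell, with a median of -0.18, and in the reduced fit 1 rose and 2 fell. Rrm2, a ribonucleotide reductase subunit, rose by 0.94 ± 0.12 and Top2a, a topoisomerase of dividing cells, fell by 1.02 ± 0.18 (-0.55 in the reduced fit). In control cells 15 of the 30 fell, where 899 of all 7965 genes did, and 2 were called for the difference, against 2.21% of all genes. Of 28 genes of apoptosis and p53 5 rose and 6 fell (4 and 1 in the reduced fit, 5 and 2 with median scaling). Of the GADD45 family, which acts in stress and growth arrest, Gadd45a fell by 1.31 ± 0.24 (-0.69 in the reduced fit), while Gadd45b and Gadd45g rose by 0.67 ± 0.13 and 0.67 ± 0.09. Trib3, a stress-induced pseudokinase, fell by 1.16 ± 0.14 and Ddit3, the CHOP factor of the unfolded protein response, fell by 0.72 ± 0.10. Of the 22 measured genes of that response 1 rose and 3 fell, 18.2% against 15.2% of all genes.

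The large housekeeping groups gave no call in limma. Of 20 measured cytosolic ribosomal proteins none rose or fell (median -0.0033), and of 29 genes of oxidative phosphorylation none did (median -0.03, 0.16 with median scaling). At an unadjusted p of 0.05 the lists held 2 and 5 genes, and with median scaling 1 gene of each rose. Rpl19 read 0.25 ± 0.10 and Sdhc, a subunit of succinate dehydrogenase, 0.35 ± 0.13, the members with the smallest p. The ribosomal list had a median level of 15.93, close to the brightest listed genes, such as Lyz1 (16.09 with EtOH and 16.06 with Dex). Levels this high leave little room for a rise, so the lack of rises on that list says little.

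Clock genes were touched at a few points. Of 6 measured clock repressors Per1 and Ciart rose, Ciart by 0.56 ± 0.12. Per2 read 10.10, 9.87 and 10.16 on the EtOH arrays and 10.30, 10.13 and 10.28 on the Dex arrays, against 7.21, 7.05 and 7.29 on the control EtOH arrays, and its change of 0.19 ± 0.13 did not pass. Nfil3, a repressor of the D-box, rose by 1.23 ± 0.11, and Dbp, an activator of the D-box that is itself driven by the clock, fell by 0.49 ± 0.11 (not called in the reduced fit). None of the 6 measured genes of the REV-ERB loop and positive arm passed in limma (1 at an unadjusted p of 0.05), with the activator Arntl at 0.27 ± 0.13 and the REV-ERB repressors Nr1d1 and Nr1d2 at 0.53 ± 0.26 and -0.28 ± 0.11. In control cells Nr1d1 changed by -1.26 ± 0.26 and Nr1d2 by -1.63 ± 0.11, and the difference between genotypes was called for both (limma, adjusted p = 0.037 and 0.00158). Usp2, a ubiquitin protease that acts on clock proteins, rose by 1.02 ± 0.21 (0.60 in the reduced fit).

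Where a gene was called in both genotypes, its direction was nearly always the same. The Dex and EtOH arrays of control cells gave 1603 called genes (20.1%), and 664 of these and of the 1212 in dKO cells were called in both, 649 in the same direction and 15 in opposite directions. A further 548 were called in dKO cells only and 939 in control cells only, which by itself does not show that the genotypes differ. The difference itself, the change in dKO cells less that in control cells, passed for 176 genes (2.21%), of which 100 (1.26%) had the higher change in dKO cells and 76 (0.954%) the lower (limma). At an unadjusted p of 0.05 there were 1806. The call depended on the arrays: 76 genes passed in the reduced fit, 1205 without dKO EtOH replicate 3 and 29 without control EtOH replicate 3.

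Of the 1212 genes called in dKO cells, 98 were called for the difference. Of these, 45 rose in dKO cells with a higher change than in control cells and 14 rose with a lower one, while 29 fell with a lower change than in control cells and 10 fell with a higher one. Defb1 rose from background in dKO cells as described and was at background on all 6 control arrays. Gsta3 rose by 2.67 ± 0.14 in dKO and by 0.53 ± 0.14 in control cells, a difference of 2.14 ± 0.20 (limma, adjusted p = 0.000342). Ramp2 rose by 3.15 ± 0.20 against a change of 0.56 ± 0.20 in control cells. Rnase2a, an eosinophil-type ribonuclease, was at background under EtOH in dKO cells and came to 7.995, 7.87 and 7.77 with Dex. Tnnt1, a slow-muscle troponin, rose by 1.15 ± 0.13 in dKO cells and read -0.44 ± 0.13 in control cells.

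Several rises were smaller in dKO cells. Anxa8, an annexin, rose by 0.75 ± 0.13 in dKO and by 3.07 ± 0.13 in control cells (difference -2.32 ± 0.18, adjusted p = 9.37e-05, limma). Spink8, a protease inhibitor, was at background under EtOH in both genotypes and read 6.93, 6.99 and 6.85 on the dKO Dex arrays and 8.75, 8.93 and 9.03 on the control Dex arrays, which did not overlap. The same held for Lcn2, at 9.97, 9.71 and 9.74 in dKO and 11.73, 11.25 and 11.32 in control cells with Dex. Rab15, a small GTPase of endosome recycling, rose by 0.73 ± 0.11 and 2.21 ± 0.11. For Dbp the change was -0.49 ± 0.11 in dKO cells against -2.19 ± 0.11 in control cells. Of the glucocorticoid-induced list, 1 of 29 genes was called for the difference, near the share of all genes (2.21%). It was Lcn2, which passed the probe filter through the Dex arrays alone. Fkbp5, Tsc22d3, Sgk1 and Per1 were not called for the difference. Their changes in control cells were 4.50 ± 0.15, 2.36 ± 0.11, 1.96 ± 0.10 and 1.76 ± 0.16. The 95% intervals of these differences were -0.14 to 0.78 for Fkbp5, -0.74 to -0.09 for Tsc22d3, -0.63 to -0.01 for Sgk1 and -0.74 to 0.22 for Per1.

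**Figure D5:**
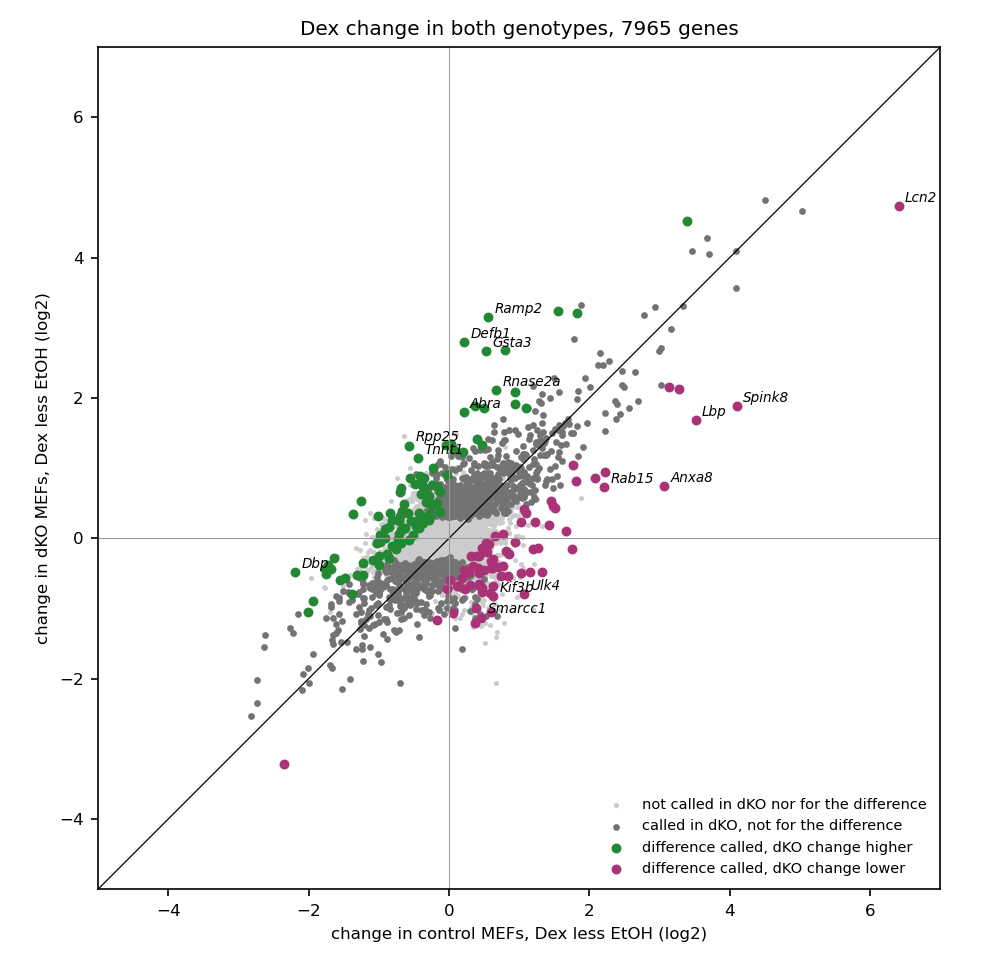
Each point is a gene, placed by its Dex change in control MEFs (horizontal axis) and in dKO MEFs (vertical axis), both on the log2 scale, with the diagonal at equal changes and genes called for the difference in green (dKO change higher, 100 genes) or purple (dKO change lower, 76 genes). Defb1, Gsta3 and Ramp2 lie above the diagonal near a control change of 0, and Anxa8 and Spink8 lie to its right.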

How the data were processed

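The deposited table held, per the file headers, the average bead signal of each probe as an intensity and a detection p-value against negative control beads of the same array. GenomeStudio was used per the submitters' processing notes, with no version named. The deposited processed values, also an intensity, had shared quartiles on all arrays and served as an alternative, with values below 16 raised to 16; the method of their normalization is not stated there.

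Signals were background-corrected with limma's nec (offset 16, control beads inferred from the detection p-values), quantile normalized over the 12 arrays and set on the log2 scale in R 4.3.3 with limma 3.58.1. Of 25697 probes 23978 had 1 gene symbol in GEO's platform annotation, 23962 of them updated through RefSeq gene IDs, and of the 11290 probes kept 10656 had 1. A linear model of the 4 group means was fitted to all 12 arrays, which share the estimate of the spread, and the Dex change in dKO cells, in control cells and their difference were tested with Benjamini-Hochberg adjustment over 7965 genes. Each gene was read from its kept probe with the highest mean over the 12 arrays. Of 1998 genes with further kept probes 267 were called, and in 216 of those (80.9%) every probe had the same sign. The 6 arrays had 10953 to 11527 probes above background (42.6 to 44.9%) and median signals of 187 to 205, and their number limits the precision. The filter admitted 64 probes through the 3 Dex arrays alone and 109 through the 3 EtOH arrays alone.

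The genes named are the 30 largest called changes each way whose groups do not overlap, up to 6 called members of each list with the smallest p, the 12 genes each way called for the genotype difference with the smallest p, and the clock and receptor genes Nr3c1, Fkbp5, Sgk1, Tsc22d3, Per1, Per2, Cry1 and Cry2. Adgre1, Aldh2, Aldh3a2, Cp, Cpxm1, Map3k6, Pf4, Socs3, Suox, Tagln and Tyrobp were named after their values were seen. The members and the lists were chosen with earlier results of these data known, and lists are described by counts and medians without a test. The procedure was tested on simulated data. Alternatives covered the background correction, the normalization, the filters, the choice of probe, the variance model, array weights, a block for the replicate number and the arrays included. Replicate numbers were not taken to pair the samples: correlations of deviations between same-numbered EtOH and Dex arrays were -0.053, -0.060 and -0.195.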

Additional observations from a re-analysis of the deposited data

Results flagged for a closer look

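The Dex change differed between the genotypes, by the interaction term of the linear model (limma, adjusted over 7965 genes), for the 24 genes below, which are also called for Dex in dKO cells. A positive difference means a higher change in dKO cells. Where a gene was at background in a group the fitted difference depends on the offset and is not a bound.

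Among genes with the higher change in dKO cells, the difference was 2.59 for Ramp2, 2.14 for Gsta3, 1.59 for Tnnt1, 1.01 for Angpt2 (a ligand of the endothelial receptor Tie2), 1.22 for Fbxo44 (an F-box protein) and 0.92 for Haus8 (a subunit of the augmin complex of the spindle). For Dbp it was 1.70 and for Pdlim4, an actin-associated protein, 1.24, since both fell by less in dKO cells. Defb1 gave 2.57, Abra, a coactivator of SRF through MRTF factors, 1.59, Rpp25, a ribonuclease P subunit, 1.88 and Rnase2a 1.44, and these were at background on all dKO EtOH arrays. Defb1 and Abra were at background in both control groups as well.

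Among genes with the lower change in dKO cells, the difference was -2.32 for Anxa8, -1.48 for Rab15, -0.99 for Mgst2 (a microsomal glutathione transferase), -1.67 for Lcn2, -2.21 for Spink8 and -1.83 for Lbp, all of which rose in both genotypes. Lcn2 and Spink8 were at background in both EtOH groups and Lbp in the control EtOH group. For the remaining genes the change was negative in dKO and positive in control cells: Ulk4, a kinase-like gene, with -1.86, Smarcc1, a chromatin remodelling subunit, with -1.59, Kif3b, a kinesin motor at background on the dKO Dex arrays, with -1.45, Stard10, a lipid transfer protein, with -1.38, B3galnt1, a glycosyltransferase, with -1.08, and Akap10, an anchor of protein kinase A, with -0.92.

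None of these 24 differences changed sign under any alternative run; 9 were no longer called with a replicate block within genotype, 5 with a common replicate block, 6 in the reduced fit, 2 without background correction and up to 5 when 1 array was left out (5 without control EtOH replicate 3). The other alternatives kept all 24 calls.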

How the results depend on the processing

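The count of 1212 genes called in dKO cells (709 higher, 503 lower) stayed within 1.5 times under 11 of the 14 alternatives that did not leave out a single array. The others were array weights (3181 called, 1870 higher, 1311 lower), a replicate block within genotype (769, 462 and 307) and the reduced fit (679, 370 and 309); median scaling and the fit to the 6 dKO arrays alone each moved the lower count to 332. Leaving out 1 array gave 718 to 2194 called genes, 436 to 1311 higher and 282 to 883 lower. The 176 differences between genotypes (100 higher, 76 lower) were less stable: 283, 163 and 120 without background correction, 683 and 596 with median scaling, 291, 171 and 120 with the deposited processed values, 59, 30 and 29 with no filter, 1823, 1156 and 667 with array weights, 76, 44 and 32 in the reduced fit, and 29 to 1205, 15 to 761 and 14 to 444 when 1 array was left out. A common replicate block gave 30 differences (15 and 15), a replicate block within genotype 25 (13 and 12), and 910 genes in dKO cells were called with the common block. In deviations from the group means, no dKO array correlated best with the array of its own number under the other treatment. No filter tested 16593 genes; for the other settings the cause was not tested. Among the genes named, Cry2 changed sign without Dex replicate 2 (-0.010, up to 0.346 without Dex replicate 3), Nr1d1 and Aldh3a2 in the reduced fit (-0.021 and -0.0916) and Aldh2 with median scaling (0.00222), none of them called in limma under that setting. With median scaling the medians of 10 lists turned positive: detoxification, collagens, apoptosis, AP-1, plasminogen and serpins, receptor coregulators, G protein and cAMP signalling, PAR bZIP factors, ribosomal proteins and oxidative phosphorylation. In the reduced fit those of the last 2 turned positive, and those of MAP kinase feedback, matrix glycoproteins, solute carriers, water and ion transport, the IGF system, imprinted genes, growth factors, the BMP and TGF-beta pathway, axon guidance, limb and face patterning, the unfolded protein response, FoxO and autophagy, the REV-ERB arm, nuclear receptors and cell adhesion turned negative, as did that of all genes (from 0.03 to -0.02). With 3 arrays per group, and genes near background compressed towards the offset, small changes of dim genes were the least well measured.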
